A study of Mus musculus with 26 samples.

Results

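Gene expression in sham-operated knee joints 2 weeks after surgery was compared with that in unoperated joints. By sample title, 6 of the 26 pools of the series belong to this comparison, 3 from sham joints at 2 weeks and 3 from joints at time 0. All mice were male C57BL/6 and each pool held RNA of 3 mice, run on 1 Affymetrix Mouse Genome 430 2.0 array. The time 0 mice had no surgery and were 12 weeks old, whereas the sham mice had the control operation at 12 weeks and were 14 weeks old. The operation and the 2 weeks of age therefore cannot be told apart here. Sham pools of 4, 8 and 16 weeks, used further below, came from mice of 16, 20 and 28 weeks of age. Pools taken 2 weeks after destabilization of the medial meniscus (DMM) came from mice of 14 weeks of age. The tissue was a block from the medial compartment with cartilage, subchondral bone, meniscus, and the capsule with its synovium.

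The labels call the operation sham and do not say what it involved, and per the study's methods it served as a control. Repair of joint capsule and synovium after surgery is known to involve fibroblasts, which lay down collagens, proteoglycans and glycoproteins, secrete proteases that remodel them, and respond to growth factors. Resident and recruited macrophages, complement proteins and chemokines take part in the early phase. Fat lies next to the synovium of the knee and marrow beneath the subchondral bone, so genes of fat cells, blood formation and muscle can also be read in such a block.

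The deposited values are log2 signals, and a log2 ratio is the mean of the 3 sham pools minus the mean of the 3 time 0 pools. Errors of log2 ratios are standard errors and errors of levels are SDs over 3 pools. A probe set or gene was called higher or lower at an adjusted p under 0.05 (limma over all 26 arrays, Benjamini-Hochberg), and a gene was represented by its brightest probe set. In tissue RNA, fewer cells of a type and less RNA per cell cannot be told apart. Precision is limited by the number of pools, and an exact permutation test of 3 against 3 cannot go below p = 0.1.

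The defining markers of cartilage, bone, osteoclasts, marrow, fat and muscle were present in all 6 pools, with Col2a1 between 13.67 and 14.11 (log2 signal) and Adipoq between 11.99 and 13.02. The pools differed in muscle and red cell content. The mean level of 34 skeletal muscle genes was 9.61, 10.71 and 10.21 in time 0 pools 1, 2 and 3 and 11.97, 10.74 and 9.09 in sham pools 1, 2 and 3. Sham pool 1 was the highest and sham pool 3 the lowest of all 26 pools. The mean level of 16 erythroid genes was 11.68, 12.01 and 12.15 at time 0 and 12.06, 11.65 and 10.79 in the sham pools, where pool 3 was again the lowest of the 26. The 3 prime minus 5 prime signal of Gapdh, a sign of RNA integrity, was 0.211 to 0.280 at time 0 and 0.313 to 0.375 in the sham pools, without overlap. Array medians of the 6 pools lay between 7.93 and 7.95.

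Of the 22489 probe sets tested, 1.66% were called, 282 of them with more signal in sham joints and 91 with less. By gene, 188 were higher (1.63% of 11511) and 44 lower (0.382%). These shares are the background for the counts of each gene list below. In the fit with the erythroid score they were 0.443% and 0.356%. The median log2 ratio of the higher genes was 0.63 and that of the lower genes was -0.44. The 3 sham pools did not overlap the 3 time 0 pools for 180 of the higher and 43 of the lower genes, against 14.9% of all genes tested. The genes were called on these same pools, so this separation is largely built in and is no added support. The 15 highest and 10 lowest called genes named below were also picked for separate pools. The sizes differed between the sham pools, with median ratios of the higher genes to the mean of time 0 of 0.33, 0.77 and 0.79 in pools 1, 2 and 3. Sham pool 1, the pool with the most muscle RNA, had the smallest shift for 173 of the 188 higher genes and for 30 of the 44 lower genes. With the muscle score as a covariate all 232 genes were still called, and the part of muscle RNA in the sizes was not tested.

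Few of these calls stood without each of the 6 pools. Of the 232 genes, 232 were still called without sham pool 1, 1 without sham pool 2 and 19 without sham pool 3. Without time 0 pools 1, 2 and 3, 183, 3 and 16 were still called. Only Ces1d was called in all 6 of these fits, and Lipe in 5. With the Gapdh difference as a covariate 29 genes were still called, and with the erythroid score 68. The part of RNA integrity and of red cell content in the calls was not tested. A fit of the 2 groups alone called 0 probe sets, with 2102 at an unadjusted p under 0.05.

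**Figure D1:**
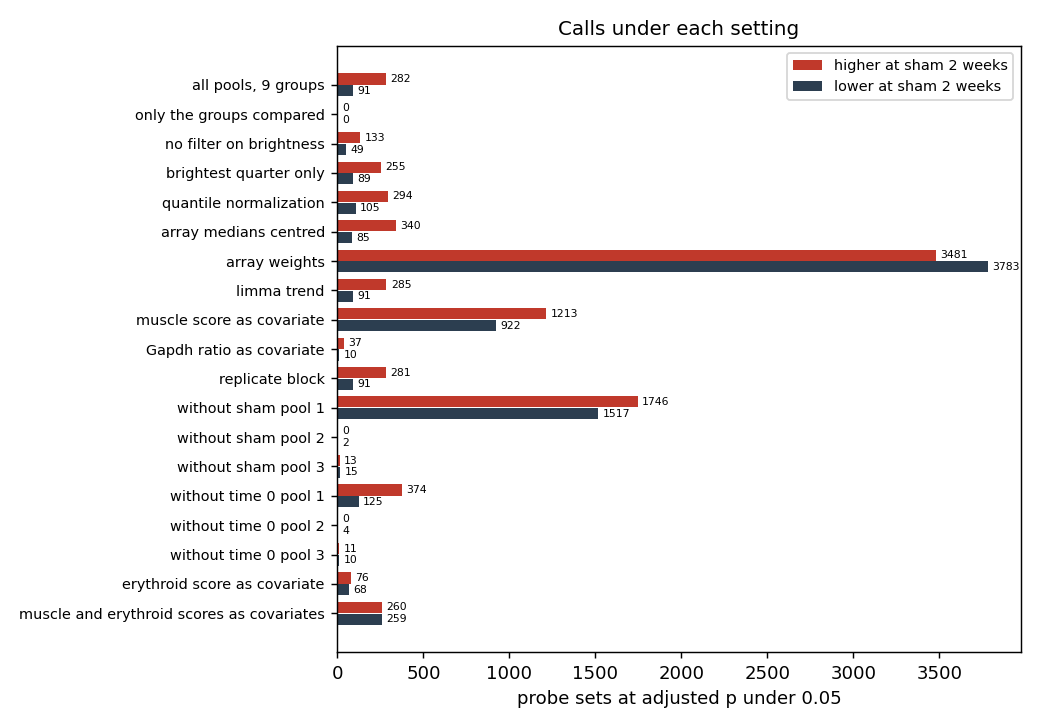
Number of probe sets called higher (red) or lower (dark) at sham 2 weeks than at time 0, by setting, with the number at the end of each bar. All pools in 9 groups gave 282 higher and 91 lower, the fit without sham pool 1 gave 1746 and 1517, and the fit without sham pool 2 gave 0 and 2.

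Collagen genes were among the higher genes. All 17 measured fibrillar collagens and partners had positive log2 ratios, with a median of 0.65 (all genes tested, 0.00), and 5 rose while none fell. Col14a1, a collagen that sits on the surface of fibrils, was at 10.65, 9.92 and 10.19 (log2 signal) at time 0 and at 11.31, 12.37 and 12.21 in sham pools 1, 2 and 3. Every sham pool lay above every time 0 pool, and the ratio was 1.71 ± 0.27, or 3.26-fold (adjusted p = 0.00921). Col3a1, the fibrillar collagen of young scar and of soft connective tissue, was at 14.42, 14.19 and 14.21 at time 0 and at 14.82, 15.40 and 15.50 in the sham pools, a 1.95-fold difference (adjusted p = 0.0206). The other called members were Col18a1 (1.24 ± 0.22), Col5a1 (0.85 ± 0.19) and Col16a1 (0.59 ± 0.14). Col1a1 and Col1a2, the chains of type I collagen, had ratios of 0.39 ± 0.12 and 0.33 ± 0.10 that did not pass the test (adjusted p = 0.0816 and 0.0900). With the erythroid score as a covariate 3 of the 17 genes were higher, in a fit that called 0.443% of all genes higher, and with the muscle score 14 were (6.82% of all genes).

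Of 11 basement membrane genes, 4 rose and none fell, with a median of 0.67 (1.63% of all genes rose). These were the laminin chains Lamb1 (1.18 ± 0.25), Lamc1 (0.86 ± 0.17) and Lama2 (0.70 ± 0.15) and the laminin-binding protein Nid1 (0.80 ± 0.16). Col4a1, a collagen of the same layer, had a ratio of 0.69 ± 0.24 (adjusted p = 0.133), and its sham pool 1 at 11.15 lay within the time 0 range of 10.86 to 11.42. Among 21 genes of collagen processing, Loxl1, which cross-links elastin, rose by 1.08 ± 0.20 and Bmp1, which cleaves procollagens, by 0.52 ± 0.12, while 19 were not called. With the erythroid score 2 basement membrane genes and 1 gene of collagen processing were higher (0.443% of all genes).

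Glycoproteins of the matrix showed the same direction in 21 of 22 measured genes (median 0.55). Of the 22, 6 rose and none fell, where 1.63% of all genes rose. Postn, which encodes periostin, a protein of healing and load-bearing connective tissue, was at 11.65, 11.67 and 11.52 at time 0. In sham pools 1, 2 and 3 it was at 12.33, 13.71 and 13.60, so that all 3 lay above time 0 and pool 1 was well below the other two. The ratio was 1.60 ± 0.29 (adjusted p = 0.0121). Mfap5 (1.39 ± 0.33) and Mfap2 (1.06 ± 0.18), proteins of elastic microfibrils, Fbln2 (1.28 ± 0.27), Matn2 (1.15 ± 0.28) and Thbs3 (0.83 ± 0.20) were the other called members. Fn1, which encodes fibronectin, and Tnc, which encodes tenascin C, had ratios of 0.51 ± 0.15 and 0.22 ± 0.14 (adjusted p = 0.0873 and 0.416). In the fit with the erythroid score 2 of these glycoprotein genes were higher (0.443% of all genes).

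Small leucine-rich proteoglycans bind collagen fibrils and set their spacing. Of 12 measured, 3 rose and none fell, with a median of 0.42 (1.63% of all genes rose). Kera was at 9.34, 8.66 and 8.55 at time 0 and at 9.94, 11.48 and 10.36 in the sham pools (1.74 ± 0.39, adjusted p = 0.0336). Aspn rose by 1.41 ± 0.26 (adjusted p = 0.0138). Dcn, which encodes decorin, and Bgn, which encodes biglycan, had ratios of 0.43 ± 0.12 and 0.51 ± 0.15 that were not called (adjusted p = 0.0732 and 0.0913). Fmod and Prelp had ratios of 0.41 ± 0.21 and 0.14 ± 0.21 (adjusted p = 0.299 and 0.788).

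Of 10 tendon and ligament genes, 3 rose and none fell (1.63% of all genes rose). Tnmd, a membrane protein of tendon cells, was at 9.10, 8.50 and 8.22 at time 0 and at 9.54, 10.96 and 10.21 in sham pools 1, 2 and 3. The groups did not overlap, and the ratio was 1.63 ± 0.34 (adjusted p = 0.0218). Dpt, a protein that binds decorin, rose by 1.34 ± 0.26, and Kera belongs to this list too. Scx, a transcription factor of tendon cells, had a ratio of 0.24 ± 0.10 (adjusted p = 0.241). The erythroid score left 1 gene higher in this list and 1 among the small leucine-rich proteoglycans (0.443% of all genes).

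**Figure D2:**
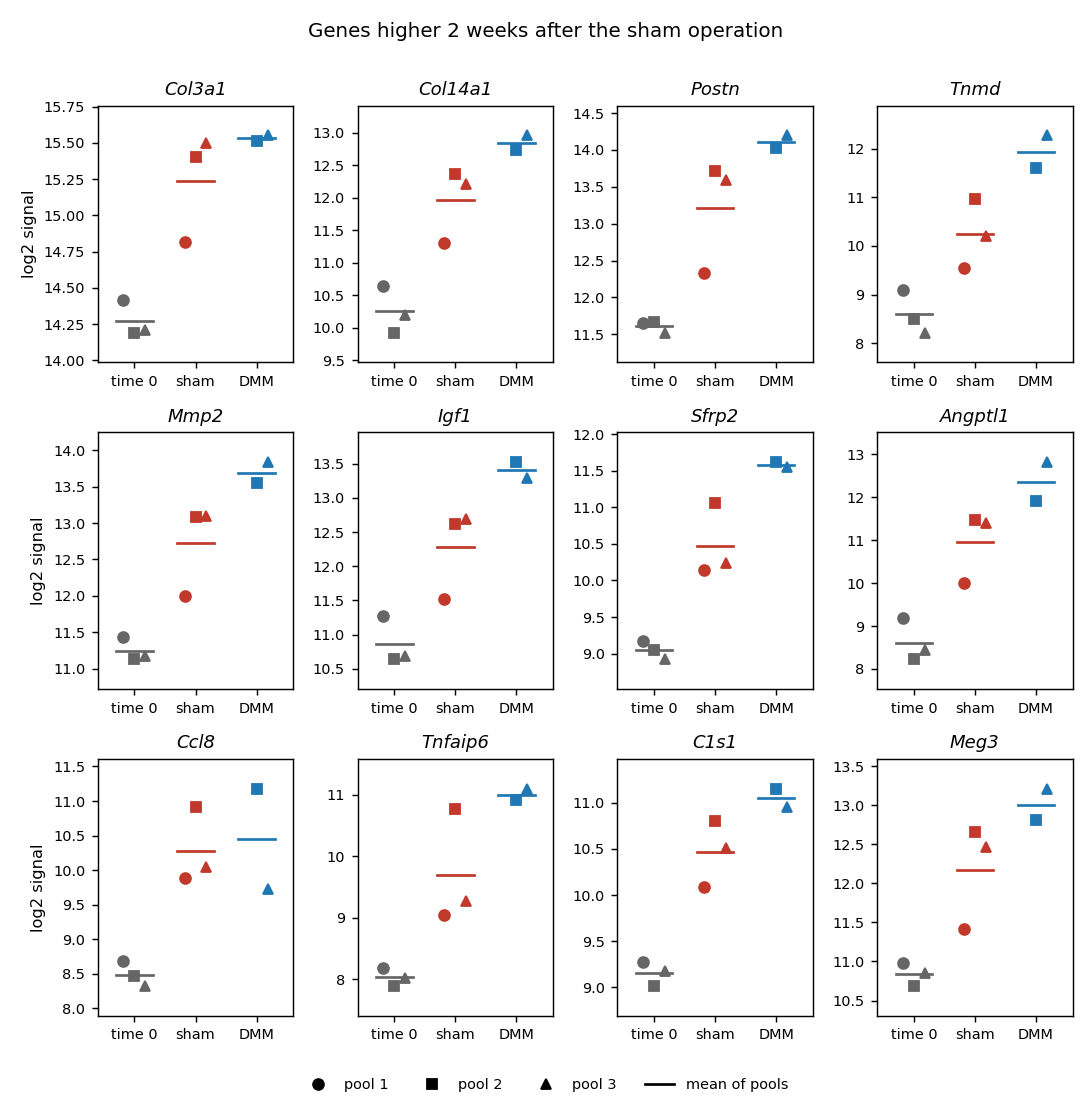
Log2 signal of 12 genes called higher at sham 2 weeks in each time 0 (gray), sham 2 weeks (red) and DMM 2 weeks (blue) pool, with symbols for the pool number and lines for the means. In each panel all 3 sham pools lie above all 3 time 0 pools, and for Col3a1, Postn and Igf1 sham pool 1 is the lowest of the 3 sham pools.

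Genes of stromal cells were also among the 1.63% of all genes called higher. Of 23 genes of activated fibroblasts and myofibroblasts, 21 had positive ratios and 5 rose, namely Lrrc15 (1.29 ± 0.28), the stromal surface proteins Cd248 (0.90 ± 0.18), Thy1 (0.82 ± 0.17) and Cd34 (0.79 ± 0.15), and the PDGF receptor Pdgfrb (0.62 ± 0.15). Lrrc15 was at 7.54, 7.60 and 7.74 at time 0 and at 8.23, 9.73 and 8.81 in the sham pools, with pool 2 standing well above the other two. Acta2, the actin of contractile myofibroblasts, had a ratio of 0.27 ± 0.12 and overlapping pools (adjusted p = 0.238). Pdpn, a surface protein of synovial fibroblasts, lymphatic vessels and osteocytes, rose by 1.36 ± 0.28 (adjusted p = 0.0216). Of 18 mesenchymal and limb transcription factors, Meox2 (0.70 ± 0.17) and Tbx15 (0.58 ± 0.14) rose, and Prrx1 had a ratio of 0.65 ± 0.19 (adjusted p = 0.0760). Under the erythroid score 2 fibroblast genes and 0 of these transcription factors were higher (0.443% of all genes).

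Of 18 matrix proteases 2 were called and of 6 inhibitors 2, all of them higher, where 1.63% of all genes tested were higher. Mmp2, a gelatinase of fibroblasts, was at 11.44, 11.13 and 11.17 at time 0 and at 11.99, 13.08 and 13.10 in sham pools 1, 2 and 3, a 2.79-fold difference (adjusted p = 0.0140). Adamts1 rose by 0.50 ± 0.12, and the other 16 of 18 proteases were not called. Mmp3, the stromelysin of inflamed synovium, had a ratio of 1.93 ± 0.52, but its sham pools spread from 9.88 to 12.01 and it missed the threshold (adjusted p = 0.0592). Mmp13, the collagenase of cartilage and bone, had a ratio of 0.24 ± 0.18 (adjusted p = 0.517). Of 6 inhibitors, Timp2 (0.82 ± 0.17), which inhibits metalloproteinases, and Serping1 (0.91 ± 0.19), which inhibits complement proteases, rose. When the erythroid score was included, 1 protease and 0 inhibitors were higher (0.443% of all genes).

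Secreted growth factors and their modulators held the largest ratio of all called genes. Angptl1, an angiopoietin-like protein, was at 9.18, 8.22 and 8.44 at time 0 and at 11.47 and 11.41 in sham pools 2 and 3, while sham pool 1 was lower than these and still above every time 0 pool. The ratio was 2.34 ± 0.40 (5.08-fold, adjusted p = 0.00921). Of its other 2 probe sets tested, 0 were called and 1 had the opposite sign. Igf1, the main growth factor of connective tissue, was at 11.27, 10.64 and 10.68 at time 0 and at 11.53, 12.62 and 12.69 in the sham pools. The groups did not overlap, although sham pool 1 was closer to time 0 pool 1 than to the other sham pools, and the ratio was 1.42 ± 0.27 (adjusted p = 0.0138). Igfbp4, which binds it, rose by 0.47 ± 0.11, and these were the 2 called genes of 17 in the IGF list (1.63% of all genes rose). Ptn (1.36 ± 0.29) and Mdk (0.67 ± 0.13), heparin-binding factors of one family, rose as well.

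The TGF beta and BMP list had 3 called genes of 27, Fstl1 (1.21 ± 0.21), which binds BMPs, Bmp1 and the receptor Tgfbr2 (0.48 ± 0.11). In the Wnt list 3 of 23 genes rose, against 1.63% of all genes tested. Sfrp2, a secreted modulator of Wnt signals, was at 9.17, 9.05 and 8.92 at time 0 and at 10.14, 11.05 and 10.24 in sham pools 1, 2 and 3. Here pool 1 was close to pool 3, and the ratio was 1.43 ± 0.22 (adjusted p = 0.00921). The receptors Fzd1 and Fzd2 rose by 0.84 ± 0.17 and 0.39 ± 0.10. Dkk3 and the secreted protease Htra1 had ratios of 1.28 ± 0.37 and 0.80 ± 0.24 that missed the threshold (adjusted p = 0.0769 and 0.0912). Among 12 imprinted growth genes, the noncoding RNA Meg3 rose by 1.34 ± 0.24 (adjusted p = 0.0134), a call shared by 6 of its other 7 probe sets, and Gnas by 0.24 ± 0.05. Once the erythroid score was a covariate, 2 genes were higher in each of the IGF and imprinted lists (0.443% of all genes). In that fit 1 was higher in each of the TGF beta and BMP, Wnt, and FGF and PDGF lists.

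Immune genes were described by several lists, to be set beside the 1.63% of all genes that rose. Of 16 complement genes, 5 rose and none fell: the C1 proteases C1s1 (1.30 ± 0.22) and C1ra (0.96 ± 0.21), the receptor C3ar1 (1.02 ± 0.25), factor B, encoded by Cfb (0.80 ± 0.20), and Serping1. C1s1 was at 9.28, 9.01 and 9.18 at time 0 and at 10.08, 10.80 and 10.51 in the sham pools, without overlap. Ccl8, a chemokine for monocytes, was the 1 called gene of 20 chemokines and receptors. It was at 8.68, 8.46 and 8.32 at time 0 and at 9.88, 10.92 and 10.04 in the sham pools (3.46-fold, adjusted p = 0.0104). Of 18 genes of acute inflammation, Tnfaip6, a hyaluronan-binding protein, rose by 1.66 ± 0.40 and the alarmin Il33 by 1.28 ± 0.32 (adjusted p = 0.0418 and 0.0453). The acute phase gene Saa3 had a ratio of 2.35 ± 0.67 with all sham pools above time 0, but these spread from 9.92 to 12.70 and the test was not passed (adjusted p = 0.0724). Adding the erythroid score left 1 complement gene, 1 chemokine and 0 genes of acute inflammation higher (0.443% of all genes).

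Neutrophil genes gave no call, with 0 of 19 and a median of -0.05, and S100a8 and S100a9 had ratios of 0.21 ± 0.11 and 0.19 ± 0.10. Of 20 macrophage genes 18 had positive ratios (median 0.25), but only Trem2 rose (0.52 ± 0.11, adjusted p = 0.0255), while Csf1r and Adgre1 had 0.28 ± 0.08 and 0.30 ± 0.09 (adjusted p = 0.0857 and 0.0768). H2-Aa, a chain of MHC class II, rose by 0.55 ± 0.13, the 1 call among 15 antigen presentation genes (1.63% of all genes rose). The interferon list had 0 calls of 19. Of 21 immediate early genes, Jun (0.46 ± 0.09), Ier3 (0.44 ± 0.11) and Atf3 (0.42 ± 0.11) rose, and Fos had a ratio of 0.67 ± 0.29 with overlapping pools (adjusted p = 0.236). In the erythroid fit 1 macrophage gene, 4 antigen presentation genes and 1 immediate early gene were higher (0.443% of all genes). That fit also called 1 macrophage gene lower (0.356% of all genes). Cd163, another macrophage marker, had a negative ratio of -0.57 ± 0.17 in the main fit (adjusted p = 0.0900).

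Genes of fat cells were among the lower genes. Of 19 adipocyte genes 7 fell and none rose (0.382% of all genes fell), and 18 had negative ratios (median -0.44). The medians in sham pools 1, 2 and 3 were -0.39, -0.59 and -0.40, against 0.18, -0.14 and -0.06 in the time 0 pools. Cidec, a protein of lipid droplets, was at 9.78, 9.20 and 9.34 at time 0 and at 8.33, 8.08 and 8.75 in the sham pools (-1.05 ± 0.20, adjusted p = 0.0161). Fasn, the fatty acid synthase, was at 11.83, 11.30 and 11.19 and then at 10.25, 10.05 and 10.87 (-1.05 ± 0.22, adjusted p = 0.0234). Each sham pool was below each time 0 pool for these genes.

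Lipe (-0.77 ± 0.13) and Pnpla2 (-0.44 ± 0.11), lipases that release stored fat, fell together with Dgat2 (-0.73 ± 0.17), which makes triglycerides. The hormone Retn (-0.77 ± 0.14) and the droplet protein Plin4 (-0.55 ± 0.14) completed the called members. Adipoq, a hormone gene that defines fat cells, was at 13.02, 12.65 and 12.87 at time 0 and at 12.14, 11.99 and 12.50 in the sham pools. Its groups did not overlap but its ratio of -0.63 ± 0.21 was not called (adjusted p = 0.119). Fabp4, a fatty acid carrier of fat cells, had a ratio of -0.23 ± 0.16, and its sham pool 3 at 13.84 was as high as time 0 pool 1.

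Ces1d, a carboxylesterase that hydrolyses lipids in fat and liver, had the largest ratio on this side. It was at 9.81, 9.19 and 9.38 at time 0 and at 8.37, 7.74 and 8.08 in the sham pools (-1.40 ± 0.16, 2.63-fold lower, adjusted p = 0.000465). Pcx, a pyruvate carboxylase, fell by 0.82 and Acss2, which makes acetyl-CoA from acetate, by 0.60 on the log2 scale. Acly, which makes acetyl-CoA from citrate, had a ratio of -0.26 ± 0.08 that was not called (adjusted p = 0.0873). Picked after their values were seen, Acaca, the acetyl-CoA carboxylase, had a ratio of -0.55 ± 0.13 and Slc25a1, the citrate carrier, -0.39 ± 0.08, both called. Gstz1, an enzyme of tyrosine breakdown, fell by 0.60, and Ifi27l2b by 0.76 on the log2 scale. Of 16 cholesterol synthesis genes, Insig1 (-0.47 ± 0.09), a sterol sensor partner, and Idi1 (-0.42 ± 0.09), an isomerase of the pathway, fell and none rose (0.382% of all genes fell).

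With the erythroid score as a covariate 6 of the 19 adipocyte genes were lower (0.356% of all genes in that fit), and with the muscle score 9 were (4.29% of all genes). Of the 16 cholesterol synthesis genes, 3 were lower with the erythroid score and 4 with the muscle score.

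**Figure D3:**
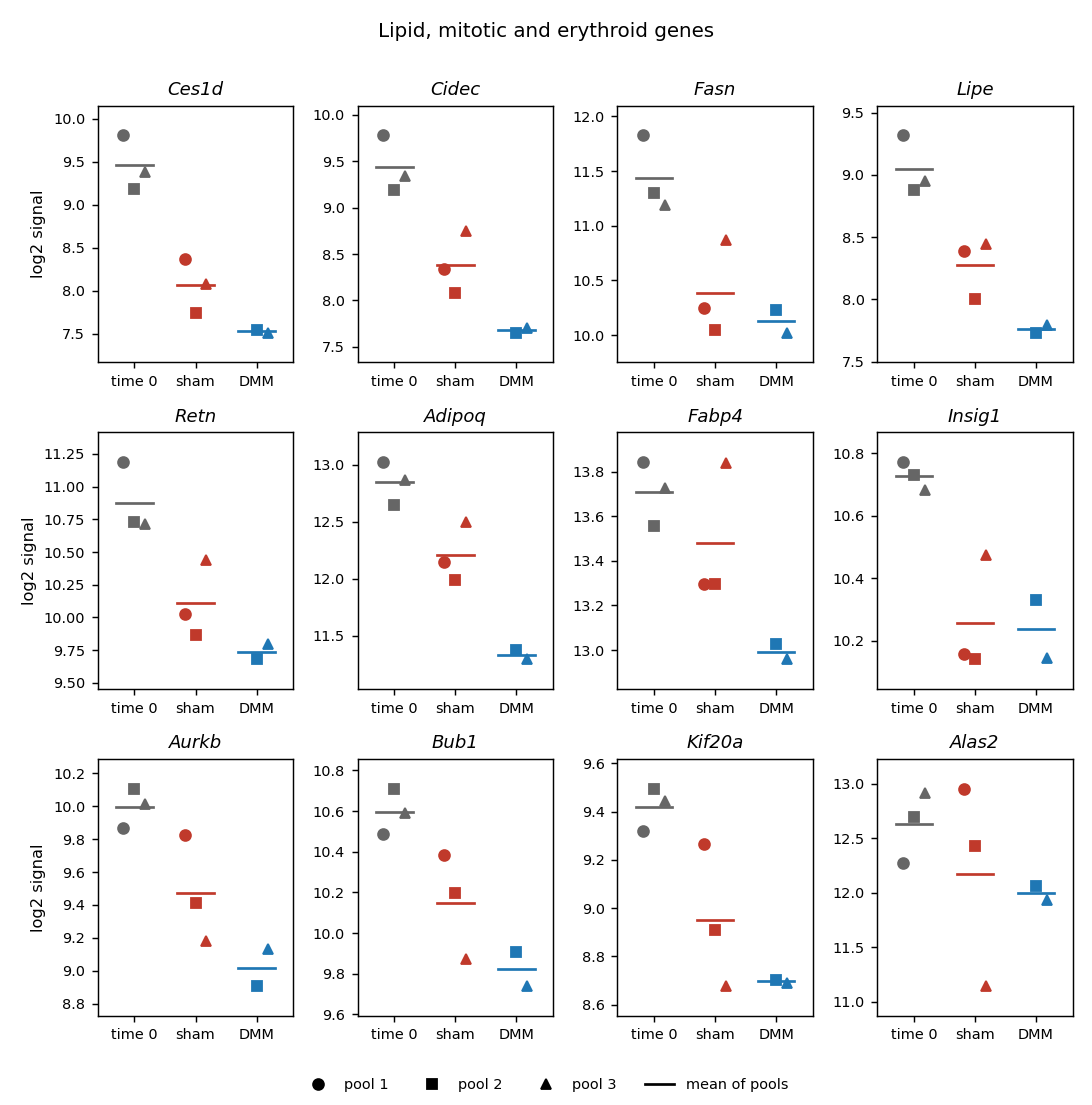
Log2 signal of lipid genes, the mitotic genes Aurkb, Bub1 and Kif20a, and the erythroid gene Alas2 in each time 0 (gray), sham 2 weeks (red) and DMM 2 weeks (blue) pool, with symbols for the pool number and lines for the means. The lipid genes Ces1d, Cidec, Fasn and Lipe are lower in every sham pool, whereas the mitotic genes and Alas2 are highest in sham pool 1 and lowest in sham pool 3 among the sham pools.

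Of 36 cell cycle genes 33 were not called, where 0.382% of all genes were called lower. All 36 had negative ratios (median -0.35) and 3 fell: Aurkb, a kinase of chromosome segregation, Bub1, a kinase of the spindle checkpoint, and Kif20a, a motor of cell division. Aurkb was at 9.87, 10.11 and 10.01 at time 0 and at 9.83, 9.41 and 9.18 in sham pools 1, 2 and 3 (-0.52 ± 0.13, adjusted p = 0.0418). Sham pool 1 was just below time 0 pool 1, and pool 3 was the lowest. Bub1 and Kif20a had ratios of -0.45 ± 0.10 and -0.47 ± 0.11 and the same order of pools. Mki67, a general marker of dividing cells, had a ratio of -0.30 ± 0.13 (adjusted p = 0.233).

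Red cell genes had the same order of sham pools as the cell cycle genes. The list medians in sham pools 1, 2 and 3 were -0.02, -0.35 and -0.68 for the cell cycle and 0.10, -0.32 and -1.17 for the erythroid list. Of the 16 erythroid genes all had negative ratios (median -0.44) and 0 were called, with 5 lower when the muscle score was a covariate. With the erythroid score as a covariate 0 cell cycle genes were called. With the muscle score 27 were lower, in a fit that called 494 of all 11511 genes lower (4.29%). The part of red cell precursors in the cell cycle result was not tested. The defining marker Alas2, an enzyme of heme synthesis, was at 12.28, 12.69 and 12.92 at time 0 and at 12.95, 12.43 and 11.14 in the sham pools.

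Cartilage and bone genes gave few calls, but few of all genes tested were called (1.63% higher and 0.382% lower). Counts at or near 0 in lists of this size are close to these shares. Of 21 chondrocyte genes 0 were called (median -0.18), and Col2a1 had a ratio of -0.22 ± 0.33 and Acan, the large proteoglycan of cartilage, -0.10 ± 0.19. Col10a1, the collagen of hypertrophic cartilage, was at 11.85, 11.88 and 11.77 at time 0 and at 10.83, 11.24 and 11.63 in the sham pools (-0.60 ± 0.34, adjusted p = 0.364). All 3 sham pools were below time 0, but the fit over all arrays did not call it. Among 13 osteoblast and osteocyte genes Pdpn was the 1 called gene, and Sost and Dmp1, genes of osteocytes, had ratios of -0.25 ± 0.18 and 0.08 ± 0.23. Osteoclast genes had 0 calls of 13, with Acp5 at 0.18 ± 0.14 and Ctsk at 0.31 ± 0.16.

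Muscle genes were not called, with 0 of 34 and a median of 0.26, and their medians in sham pools 1, 2 and 3 were 1.82, 0.37 and -1.09. Ckm, the creatine kinase of muscle, was at 11.06, 12.32 and 11.85 at time 0 and at 13.67, 12.02 and 9.66 in the sham pools, which lie on either side of time 0. The lists of the respiratory chain (40 genes), glycolysis (22), ribosomal proteins (19) and endothelium (22) had 0 calls. Of all genes tested 1.63% were higher and 0.382% lower, so 0 calls in a list of this size, muscle included, is near that background. Positive ratios were found for 25, 14, 18 and 20 of their genes, with medians of 0.04, 0.05, 0.11 and 0.15. The pools did not overlap for 10 of the 19 ribosomal protein genes, against 14.9% of all genes tested.

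**Figure D4:**
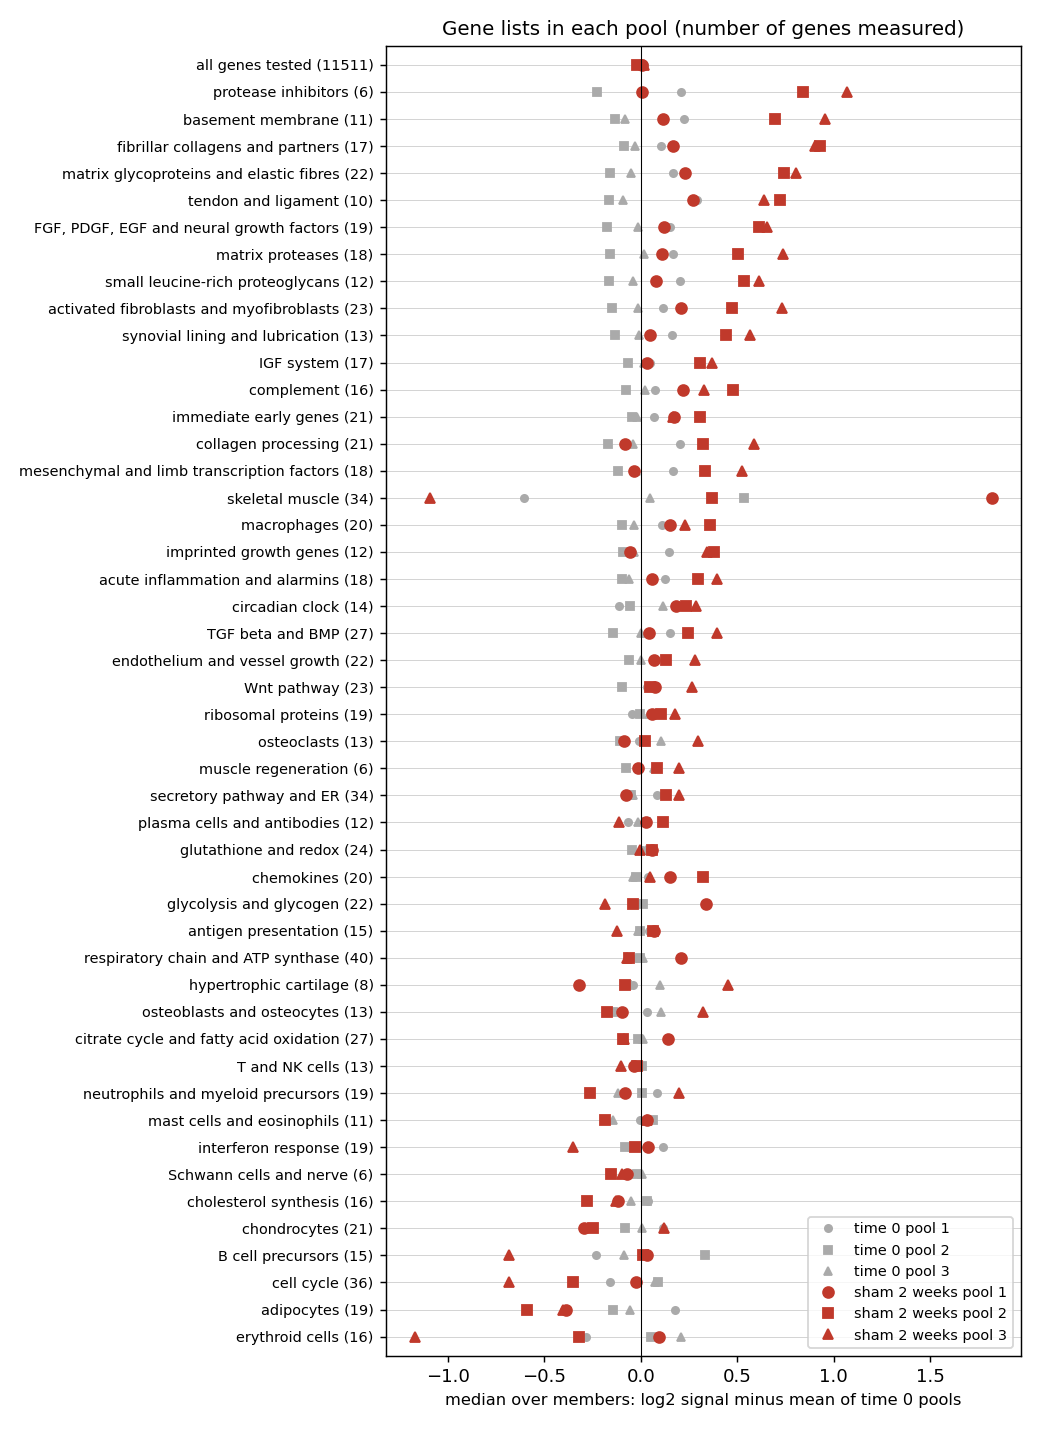
Median over the members of each gene list of the log2 signal minus the mean of the 3 time 0 pools, for each time 0 pool (gray) and each sham 2 weeks pool (red), with the number of genes in parentheses. The fibrillar collagens lie at 0.93 and 0.90 in sham pools 2 and 3 and at 0.17 in pool 1, the adipocyte list is to the left in all 3 sham pools, and the muscle list spreads from -1.09 to 1.82 within them.

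Later sham pools were set against those at 2 weeks, although the mice were also older, so that time since surgery and age cannot be told apart. The genes given here were named for their values in the same 2-week pools, so that a move back towards the time 0 level is partly built into this contrast. At 4 weeks 12.6% and at 16 weeks 33.6% of genes differed from sham 2 weeks in either direction. Col3a1 was at 14.27 ± 0.13 at time 0 and at 15.24 ± 0.37 at 2 weeks. At 4, 8 and 16 weeks it was at 14.61 ± 0.34, 13.88 ± 0.21 and 13.18 ± 0.37. It differed from 2 weeks by -0.63 and -2.06 at 4 and 16 weeks (limma, adjusted p = 0.0426 for the former and 5.6e-06 for the latter). Igf1 was at 12.28 ± 0.65 at 2 weeks and at 11.07 ± 0.59, 10.47 ± 0.10 and 10.24 ± 0.03 later, against 10.86 ± 0.35 at time 0. For both genes the means at 8 and 16 weeks were below time 0, so the fall went past the unoperated level. Ccl8 was at 10.28 ± 0.56, then at 9.70 ± 0.51, 8.83 ± 0.25 and 8.71 ± 0.32, and its difference from 2 weeks was not called at 4 weeks (adjusted p = 0.218) but was at 16 weeks (adjusted p = 0.00106). For 4 against 2 weeks, limma made 0 calls without sham 2 weeks pool 2, sham 2 weeks pool 3 or sham 4 weeks pool 2 (5379, 3686 and 4699 probe sets at an unadjusted p under 0.05).

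For the lipid genes below, no difference from the sham pools of 2 weeks was called at 4 or 16 weeks, and 8 weeks was not tested. Fasn was at 11.44 ± 0.34 at time 0, 10.39 ± 0.43 at 2 weeks and 10.09 ± 0.20, 10.36 ± 0.23 and 10.05 ± 0.48 in the later pools. Its differences from 2 weeks were -0.30 ± 0.22 and -0.34 ± 0.22 at 4 and 16 weeks, with adjusted p = 0.370 and 0.247. Ces1d was at 9.46 ± 0.32 at time 0, 8.06 ± 0.32 at 2 weeks and 8.38 ± 0.04, 8.41 ± 0.12 and 8.20 ± 0.09 thereafter (adjusted p = 0.182 at 4 weeks and 0.536 at 16 weeks against 2 weeks). Trem2 was at 8.46 ± 0.12 at 2 weeks and 8.40 ± 0.09 at 16 weeks, also without a call (adjusted p = 0.735). Aurkb went the other way, from 9.47 ± 0.33 at 2 weeks to 9.89 ± 0.08 and 10.13 ± 0.07 in the pools of 4 and 16 weeks. Both differences from 2 weeks passed the limma test (adjusted p = 0.0406 and 0.000808). With the erythroid score as a covariate, or with the 2 groups alone, the contrast of 4 with 2 weeks had 0 calls.

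**Figure D5:**
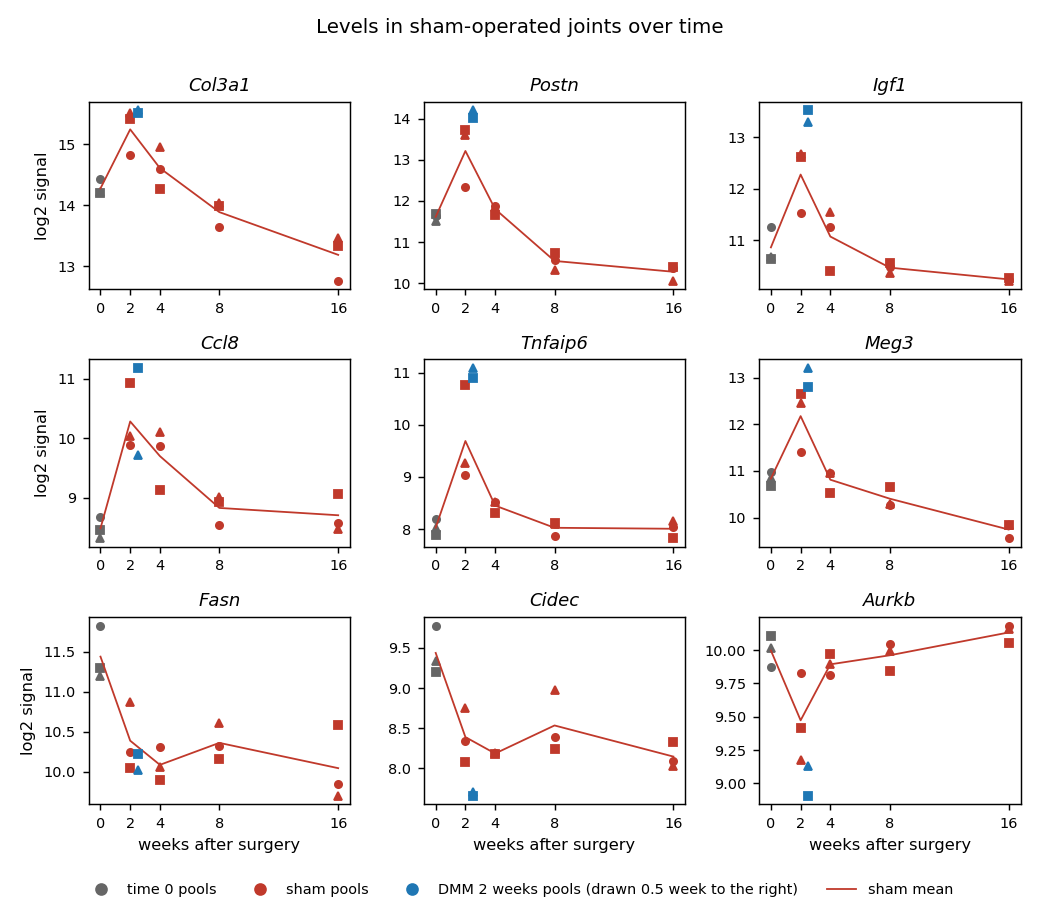
Log2 signal of 9 genes by weeks after surgery in time 0 (gray) and sham (red) pools, with a line through the means of 3 pools, and in the DMM pools of 2 weeks (blue, drawn slightly to the right). Col3a1, Postn, Igf1, Ccl8, Tnfaip6 and Meg3 peak at 2 weeks, Fasn and Cidec stay below time 0 at all later weeks, and Aurkb is lowest at 2 weeks.

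The 2 pools from joints with destabilization of the medial meniscus (DMM) at 2 weeks share the time 0 pools as their control, so their values are only set beside those of the sham pools. Against time 0, 32.9% of genes differed in DMM joints. The mean level of the erythroid genes was 11.17 to 11.29 in the DMM pools, below the 11.68 to 12.15 of time 0. In the sham pools it was 10.79 to 12.06. The part of red cell content in the DMM ratios was not tested. The ratio of Col14a1 was 2.59 in DMM and 1.71 in sham joints, and that of Postn was 2.50 and 1.60. Tnmd had 3.34 and 1.63, Angptl1 3.75 and 2.34, and Igf1 2.55 and 1.42. Mmp3 had 4.41 in DMM joints, with pools at 13.43 and 13.02, and 1.93 in sham joints. Among these genes, both DMM pools lay above all 3 sham pools.

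On the lower side, Ces1d had a ratio to time 0 of -1.93 in DMM and -1.40 in sham joints, and Adipoq of -1.51 and -0.63. Fasn had -1.31 and -1.05, and its DMM pools 2 and 3 were at 10.23 and 10.02 beside a sham range of 10.05 to 10.87. Ccl8 had 1.96 and 1.79, and its DMM pools at 11.18 and 9.72 lay on either side of the sham pools. H2-Aa had 0.33 (adjusted p = 0.103) in DMM and 0.55 in sham joints.

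By a signal log ratio to the averaged log2 values at time 0, 70 probe sets were at least 0.5 higher in each of the 3 sham pools (0.311% of those tested) and 12 were at least 0.5 lower (0.0534%). With the ratio taken to the averaged linear intensity of time 0, the counts were 68 and 14. Without sham pool 1 they were 597 and 117 by the averaged log2 values.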

How the data were processed

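Log2 signals were deposited by the authors, who imaged the arrays and applied systematic variation normalization (SVN). Surgery took place on several dates with random allocation per the study's methods, and no array is tied to a date in the sources used here. The deposited log2 values were used as they are. All 26 arrays in 9 groups were fitted with limma 3.58.1 in R 4.3.3 (17 residual degrees of freedom) over the 22489 probe sets whose mean log2 signal exceeded 7.93, the median, control probe sets left out. Names came from GEO's annotation of the array, where 34945 probe sets have 1 symbol, 932 several and 9224 none, and only those with 1 symbol stand for genes. The muscle and erythroid scores are the mean log2 signals of the measured genes of those lists.

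There were 47 gene lists, and 993 of 1090 entries had a probe set of their own. The comparison and the lists were chosen with earlier results of these data known, so no list was tested as a set. Genes named are the 15 highest and 10 lowest called genes with separate pools, up to 8 called members, the 3 brightest and the largest ratio of each list, defining markers, and 11 genes that the paper discusses. Acaca and Slc25a1 were added after their values were seen. Alternatives were other filters, quantile normalization, centred medians, array weights, a trend, covariates, a replicate block, the 2 groups alone, and leaving out each pool. The erythroid covariate, alone or with the muscle score, was added after seeing the data.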

Additional observations from a re-analysis of the deposited data

Results flagged for a closer look

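Sham pools of later weeks differed from those of 2 weeks, where weeks after surgery and age cannot be told apart. The contrast of sham pools at 4 weeks with those at 2 weeks in limma called 2490 probe sets, 959 higher and 1531 lower at 4 weeks. The contrast of 16 weeks with 2 weeks called 6910, 3464 higher and 3446 lower. The first count was 0 with the erythroid score as a covariate (3976 at an unadjusted p under 0.05), with the 2 groups alone (4284), and without sham 2 weeks pool 2 (5379), sham 2 weeks pool 3 (3686) or sham 4 weeks pool 2 (4699). The second was 3122 with the erythroid score and 2589 with the 2 groups alone. The mean level of the erythroid genes was 10.79 to 12.06 in the sham pools of 2 weeks, 12.00 to 12.20 at 4 weeks and 12.09 to 12.48 at 16 weeks.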

How the results depend on the processing

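Counts of called probe sets depended on the setting. For sham 2 weeks against time 0 (373), the fit of the 2 groups alone gave 0 (2102 at an unadjusted p under 0.05), no filter on brightness 182, array weights 7264, the muscle score 2135, the Gapdh difference 47 and the erythroid score, chosen after seeing the data, 144. For sham 4 against 2 weeks (2490), the 2 groups alone gave 0 (4284 at an unadjusted p under 0.05), array weights 8135, the muscle score 1285, and the erythroid score alone or with the muscle score 0 (3976 and 4340). For sham 16 against 2 weeks (6910), the 2 groups alone gave 2589, a stricter brightness filter (mean log2 signal above 9.18) 4322, array weights 12964, the erythroid score 3122 and both scores 3597. For DMM 2 weeks against time 0 (6658), the stricter brightness filter gave 4274. The signal log ratio count (82) was 48 with the stricter brightness filter and 14 at a threshold of 1. Leaving out 1 pool at a time gave 2 to 3263, 0 to 6310, 3453 to 8976 and 4279 to 6302 calls for these contrasts and 70 to 714 by the signal log ratio. The causes were not tested, and the stricter brightness filter also leaves fewer probe sets to call. The authors paired pools at random, and deviations of same-numbered time 0 and sham pools correlated at -0.345, 0.225 and -0.228. The numbers were therefore not used to pair the pools, although so few correlations cannot exclude a batch shared by number. The replicate block gave 372 calls. No called gene named in the text changed sign under these settings. With 3 pools a group, the number of arrays limits the precision.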
